A study of Mus musculus with 43 samples.

Results

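Voltage-gated sodium channels open when a neuron depolarises and carry the inward current of the action potential. Each channel has a large pore-forming alpha subunit and smaller beta subunits that adjust its gating and its place on the membrane. In cortex the alpha subunits sit densely at the axon initial segment, where spikes start: Scn8a encodes NaV1.6, typical of excitatory axons, Scn1a encodes NaV1.1, prominent in fast-spiking interneurons, and Scn3a encodes NaV1.3, which is most abundant before birth. The beta subunit genes described here are Scn2b, Scn3b and Scn4b, of which Scn4b is abundant in striatal projection neurons.

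The 6 genes Scn1a, Scn3a, Scn8a, Scn2b, Scn3b and Scn4b were taken by symbol from the 53379 Ensembl genes of the RNA count tables, together with their regions in the ATAC-seq tables: 97 of 165184 regions in females and 92 of 192919 in males. A region belonged to a gene when it lay wholly inside the gene's span or had its middle within 1 kb of the gene's start. All animals were wild-type Swiss Webster mice, weaned at postnatal day 25 and then kept either in environmental enrichment (EE: a larger cage that also held toys, nesting material, a tube and a running wheel) or in standard housing (SH: a small cage with bedding and a nestlet), and sampled at an age of 2 months. Neuronal nuclei were isolated from paraformaldehyde-fixed frontal cortex by the nuclear protein NeuN. Nuclear RNA-seq had 6 EE and 6 SH libraries in each sex, and ATAC-seq, which counts transposase insertions in open chromatin, had 3 EE and 3 SH libraries in females and 6 EE and 7 SH libraries in males. The question for each gene was whether its nuclear RNA or its open chromatin differed between EE and SH.

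Female and male libraries form separate tables for each assay, so a difference between the sexes and one between the tables cannot be told apart. The labels do not say whether libraries came from separate animals, and p-values therefore measure the spread between libraries, which may be technical. RNA libraries held 10625194 to 15392672 counts in females and 10394786 to 14622097 in males, and ATAC libraries 19075368 to 26257066 and 27665194 to 73835546. The NeuN gene Rbfox3 averaged 2087 ± 114 CPM (counts scaled to a common library size; SD, n = 6) in female EE and 2154 ± 75.1 in female SH, while the neuronal marker Tubb3 was at 0 in every RNA library. The list of 4 neuron markers that holds Tubb3 still summed to at least 6451 CPM in females and 5860 in males. Why Tubb3 had no counts was not tested. Female SH replicate 2 had the highest summed level of the astrocyte, oligodendrocyte, precursor, microglial and vascular marker lists.

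In mm10, the build of the tables, the alpha subunit genes are long: Scn1a spans chr2:66270778-66440840 on the minus strand, Scn3a chr2:65457118-65567627 on the minus strand, and Scn8a chr15:100869858-101045938 on the plus strand. The beta subunit genes lie on chromosome 9, plus strand: Scn3b at chr9:40269217-40291618, Scn2b at chr9:45117782-45130070 and Scn4b at chr9:45138395-45154152. Scn2b and Scn4b are therefore close neighbours. Reads were counted over introns and exons, and each count thus covers the whole span.

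The sequence before the start is shown for Scn1a, the gene with the smallest RNA p-value of the set, and for Scn2b, because both lie in open chromatin and can be printed up to the start that the count table gives. RefSeq (GRCm38.p6) supplied the promoters of 4 of the 6 genes: Scn1a, Scn2b, Scn4b and Scn8a. Both stretches read 5′ to 3′ on the gene's own strand, capitals mark CpG dinucleotides, and the first is chr2:66440841-66441087 (minus strand) and the second chr9:45117626-45117781 (plus strand).
Scn1a: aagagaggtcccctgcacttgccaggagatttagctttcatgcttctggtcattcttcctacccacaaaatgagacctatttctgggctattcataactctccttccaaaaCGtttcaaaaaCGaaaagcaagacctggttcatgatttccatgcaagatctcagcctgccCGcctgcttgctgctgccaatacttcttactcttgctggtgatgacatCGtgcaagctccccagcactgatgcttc
Scn2b: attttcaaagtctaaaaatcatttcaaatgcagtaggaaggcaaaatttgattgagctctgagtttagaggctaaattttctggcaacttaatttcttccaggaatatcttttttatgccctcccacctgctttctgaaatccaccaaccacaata
Over the 250 bases before the RefSeq start, Scn1a has 4 CpG and 46.8% G+C and Scn2b 1 CpG and 38.4%, against medians of 6 CpG and 52.4% over 32851 promoters. Scn4b has 23 CpG and 66.0% G+C and Scn8a has 30 CpG and 68.0%, counts that exceed those of 86.7% and 94.1% of all promoters. All 250 bases lay in an ATAC region in both sexes for each of these 4 starts, so open chromatin was measured at CpG-poor and CpG-rich starts alike. A further RefSeq start of Scn8a, at chr15:100936271, had no overlapping ATAC region before it in either table. The AP-1 motif TGANTCA, the CRE motif TGACGTCA and the E-box CACGTG, searched on both strands in the 300-base promoters, matched in none of the members' promoters. They matched in 7.81%, 1.79% and 7.15% of all promoters.

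Per kb of gene span, Scn8a had the highest nuclear RNA level and the order of the first 4 genes was the same in both sexes. Counts cover introns and exons together, and this order does not take their shares of each span into account. In females the levels were 3.58 ± 0.147 CPM per kb for Scn8a (SD over 12 libraries), 2.47 ± 0.237 for Scn2b, 1.96 ± 0.151 for Scn1a, 1.35 ± 0.145 for Scn3b, 1.12 ± 0.223 for Scn4b and 1.07 ± 0.0371 for Scn3a. Female Scn8a did not overlap Scn2b in any library, whereas the ranges of Scn2b and Scn1a overlapped, as did those of Scn3b, Scn4b and Scn3a. In males the levels were 3.73 ± 0.111 CPM per kb for Scn8a, 2.97 ± 0.285 for Scn2b, 1.71 ± 0.167 for Scn1a, 1.53 ± 0.143 for Scn3b, 0.993 ± 0.0453 for Scn3a and 0.607 ± 0.107 for Scn4b. Only the ranges of Scn1a and Scn3b overlapped among neighbours in the male order. The tables were scaled separately, and with that limit Scn4b averaged 17.6 CPM in females and 9.56 in males.

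Most of the 6 genes had nearly equal RNA in EE and SH, and none passed an adjusted p of 0.05 in edgeR's quasi-likelihood test with Benjamini-Hochberg adjustment over all genes of a table. The exceptions in size were Scn1a in males, whose level fitted by edgeR was 15.3% higher in EE than in SH, and Scn4b in females, with a fitted level 22.3% higher. Background calls were few as well: 0 of 14587 genes (0%) passed in females, where 1265 had an unadjusted p under 0.05, and 6 of 14597 (0.0411%) in males. DESeq2 called 117 and 61 genes, but adjusted over fewer genes, as it gave no adjusted p for 3960 female and 11037 male genes.

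**Figure D1:**
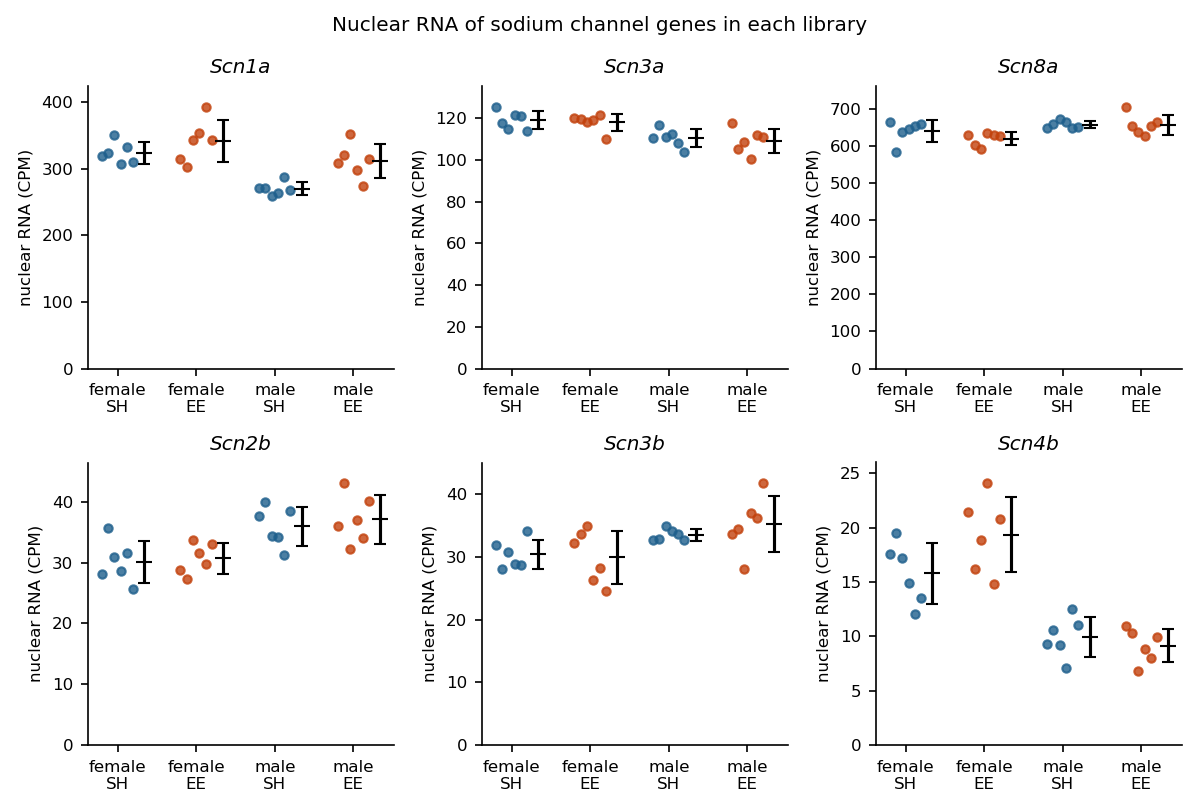
Nuclear RNA level in CPM (y axis, from 0) of each gene in every RNA library, by sex and housing (x axis; SH blue, EE orange). Points are libraries and black marks are means with SD; male EE lies highest against male SH for Scn1a, with means of 311 and 270 CPM, and Scn4b is lower in males than in females.

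Scn1a, the NaV1.1 gene, averaged higher in male EE than in male SH without passing the test. Male EE ran from 274 CPM over a median of 311 to 351, and male SH from 259 over 269 to 288. All 6 EE libraries stood above the SH median and 5 above the highest SH library. The groups still overlapped, because EE replicate 5 (274 CPM) lay below SH replicate 5 (288 CPM). The means were 311 ± 25.5 and 270 ± 9.81 CPM (SD, n = 6 each), a log2 fold change of 0.21 ± 0.05 (SE; edgeR quasi-likelihood, adjusted p = 0.168). This was the 22nd smallest p of the male table. The call depended on the processing. The adjusted p was 0.0365 in edgeR without EE replicate 5, 0.0092 in DESeq2, 0.000878 in edgeR when genes with low counts were kept, and 0.209 in limma-voom. Over 19 alternatives it ran from 0.000878 to 0.434, and 3 of them passed. These adjustments covered unlike sets of genes. The fit that kept low counts tested 36188 genes, and DESeq2 gave no adjusted p for 11037 of its 14597.

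In females Scn1a ran from 303 CPM over 343 to 393 in EE and from 307 over 321 to 351 in SH. The groups overlapped widely, and 4 of 6 EE libraries stood above the SH median. The log2 fold change was 0.08 ± 0.06 (adjusted p = 0.735, edgeR quasi-likelihood). The difference between the sexes was -0.13 ± 0.08 on the log2 scale, female minus male (edgeR interaction test, adjusted p = 0.643), and 1 of 15562 genes (0.00643%) passed that test. Without female EE replicate 5 the female value was 0.04. A shorter gene, Gm13630, overlaps Scn1a on the other strand, and since strand use in counting is not given, its reads cannot be told apart. It held 830 counts in all female libraries against 51330 for Scn1a, and 759 against 42284 in males.

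Marker lists of some other cell types were also higher in male EE, and others were not. The fast-spiking interneuron list (Pvalb, Kcnc1, Kcnc2, Tac1, Erbb4, Syt2 and Cox6a2) summed to 707 to 926 CPM in EE and 737 to 816 in SH, and 5 of 6 EE libraries exceeded every SH library. One of its potassium channel genes, Kcnc2, did not overlap between groups, with means of 322 ± 23.0 CPM (EE) and 278 ± 12.2 CPM (SH). The log2 fold change of Kcnc2 was 0.21 ± 0.05 (edgeR adjusted p = 0.118). Such separation with EE higher occurred in 0.288% of male genes. Kcnc2 is part of the list's sum, which averaged 835 CPM in EE and 762 in SH, so the gene and the sum are not separate observations. The defining marker Pvalb averaged 2.24 ± 0.527 CPM in EE against 2.64 ± 0.448 in SH. The astrocyte list summed to 896 to 1051 CPM in EE and 815 to 920 in SH. The wider GABAergic interneuron list summed to 580 to 689 CPM in EE and 546 to 630 in SH, with 5 of 6 EE libraries above the SH median. The general neuron list summed to 6238 to 6883 CPM in EE and 5860 to 6437 in SH, with 6 of 6 above it. The striatal projection neuron list went the other way, with a median of 2028 CPM in EE and 2210 in SH and 5 of 6 EE libraries below the SH median, and the excitatory neuron list had 4 of 6 EE libraries below it. With the non-neuronal marker level in the model Scn1a was at 0.20 ± 0.05; the part of the fast-spiking markers was not tested. In bulk nuclei a different share of a cell type and a different level per nucleus cannot be told apart.

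Scn3a and Scn8a, the other alpha subunit genes, differed little by housing. Scn3a averaged 118 ± 4.10 CPM in female EE and 119 ± 4.44 in female SH, and 109 ± 5.91 and 110.4 ± 4.36 in males, with log2 fold changes of -0.01 ± 0.04 and -0.02 ± 0.04. Scn8a ran from 591 CPM over 628 to 636 in female EE and from 583 over 649 to 665 in female SH. None of the 6 female EE libraries stood above the SH median, yet SH replicate 2, the library with the highest glial markers, was the lowest of all. The log2 fold change of Scn8a was -0.05 ± 0.04 in females (edgeR adjusted p = 0.795), -0.08 without that library (edgeR adjusted p = 0.499), and 0.00 in size to 2 decimals in males, with an SE of 0.04. The excitatory neuron list was also lower in female EE. It summed to 1240.94 to 1380.45 CPM in EE and 1380.5 to 1561.42 in SH, so the groups only just failed to overlap. The share of all female genes that separate this way is not given here, so how unusual this is cannot be judged. The part of the excitatory list in the female Scn8a values was not tested.

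Scn4b, the beta 4 subunit gene, had its larger value in females. Female EE ran from 14.9 CPM over 19.8 to 24.1 and female SH from 12.1 over 16.1 to 19.6. In EE 5 of 6 libraries stood above the SH median, but the groups overlapped. The log2 fold change was 0.29 ± 0.13 (edgeR quasi-likelihood, adjusted p = 0.537). Without SH replicate 2 it was 0.36 (edgeR adjusted p = 0.229), and over 19 alternatives the adjusted p ran from 0.168 to 0.854. The unadjusted p over all libraries was under 0.05 with EE higher, which held for 4.53% of all 14587 genes tested in females. In males EE ran from 6.80 CPM over 9.40 to 10.9 and SH from 7.13 over 9.96 to 12.5, with a log2 fold change of -0.13 ± 0.13 (adjusted p = 0.839). The difference between the sexes was 0.42 ± 0.19, female minus male (edgeR interaction test, adjusted p = 0.525).

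Striatal marker genes were also higher in female EE for most of their list, all but Foxp1 and Pde10a having a log2 fold change above 0, with none called. The striatal marker level is the mean log2 CPM of 13 genes of striatal projection neurons, centred within a sex, and it ran from -0.54 to 0.64 in female EE and from -1.01 to 0.21 in female SH. SH replicate 5 had both the lowest level and the lowest Scn4b of the female libraries, and EE replicate 5 had the lowest of both within EE. The summed CPM of the list, which Pde10a dominates, was 2095 to 3285 in EE and 2115 to 3201 in SH. On this sum the list was lower in female EE, with medians of 2575 CPM in EE and 2718 in SH. As in males, 5 of 6 female EE libraries lay below the SH median. The striatal signalling gene Rgs9 averaged 114 ± 38.2 CPM in female EE and 72.2 ± 28.1 in female SH, but 21.0 ± 3.71 and 18.9 ± 1.18 in males. The dopamine receptor gene Drd2 was at 26.9 ± 11.9 and 18.6 ± 8.56 CPM in females, and at 1.83 ± 0.929 and 1.88 ± 0.498 in males. None of the female striatal markers was at 0 in all libraries. With the striatal level in the model the Scn4b log2 fold change was 0.11 ± 0.11 in females (edgeR adjusted p = 0.854). In males it turned to 0.12 ± 0.12 (edgeR adjusted p = 0.905). Here too a different share of striatal nuclei and a different level per nucleus cannot be told apart. The part of striatal nuclei in the Scn4b values was not tested.

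**Figure D2:**
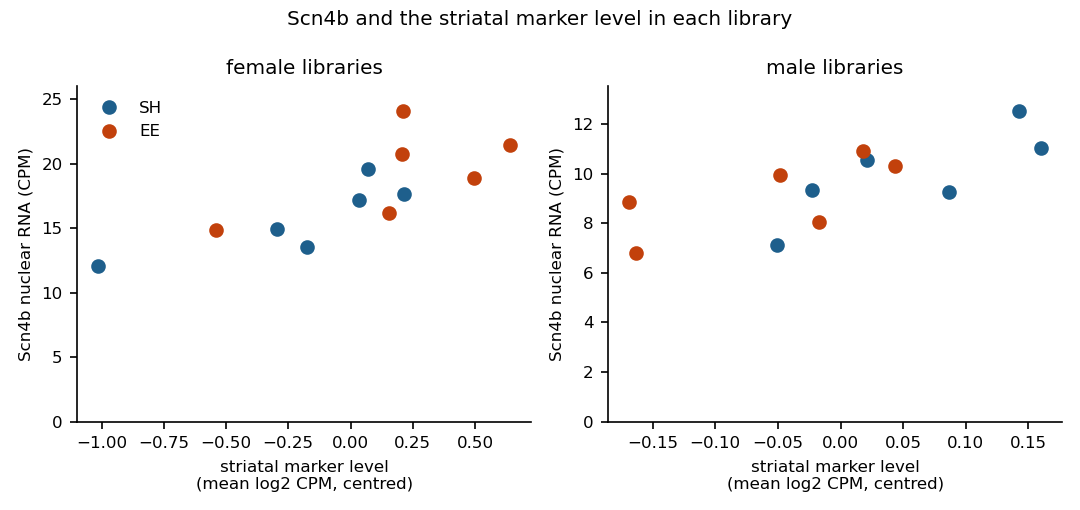
Scn4b nuclear RNA in CPM (y axis, from 0) against the centred mean log2 CPM of 13 striatal markers (x axis) in each library, females left and males right (SH blue, EE orange; each point 1 library; the axes differ between panels). Female libraries spread from -1.01 to 0.64 on the x axis, and SH replicate 5 at its left end has 12.1 CPM of Scn4b.

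Scn2b and Scn3b, the remaining beta subunit genes, gave no clear difference. Scn2b ran from 27.4 to 33.7 CPM in female EE and from 25.6 to 35.8 in female SH, and averaged 37.1 ± 3.96 and 36.0 ± 3.24 in males. Its log2 fold changes were 0.03 ± 0.08 and 0.05 ± 0.07. Scn3b averaged 30.0 ± 4.23 and 30.4 ± 2.31 CPM in females, and 35.2 ± 4.48 and 33.5 ± 0.905 in males, with log2 fold changes of -0.02 ± 0.09 and 0.07 ± 0.07. EE libraries of Scn3b spread more than SH libraries in both sexes. Gm10684 overlaps Scn2b on the other strand, with 160 counts in all female libraries against 4683 for Scn2b.

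Open chromatin was summarised as the ATAC counts of all regions of a gene. In females Scn3b had the smallest p: EE libraries were at 70.8, 65.1 and 71.0 CPM and SH libraries at 76.1, 88.2 and 84.2. Every EE library lay below every SH library, a separation in either direction that 11.1% of genes showed with 3 libraries against 3. The log2 fold change was -0.26 ± 0.08 (edgeR quasi-likelihood, adjusted p = 0.27, n = 3 each). Without female SH replicate 1 it was -0.32 with an adjusted p of 0.0283 (0.0283 to 0.999 over 9 alternatives), and that omission raised the calls over all genes from 1 to 288. Nuclear RNA of Scn3b in the same sex was at -0.02 ± 0.09.

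Scn1a was the other female gene without overlap in ATAC sums. Its EE libraries were at 148, 156 and 139 CPM and its SH libraries at 137, 130.2 and 131. The log2 fold change was 0.15 ± 0.07 (edgeR adjusted p = 0.652). Scn8a had 322, 286 and 299 CPM under EE and 337, 317 and 344 CPM under SH, which overlap, with a log2 fold change of -0.14 ± 0.07 (adjusted p = 0.708). Scn3a was at 0.16 ± 0.10, Scn4b at 0.10 ± 0.10 and Scn2b at -0.03 ± 0.09. None of the 6 genes passed the adjusted threshold, as against 1 of 15017 genes tested (0.00666%).

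In males the ATAC sums differed less. Scn1a averaged 195 ± 22.2 CPM in EE (n = 6) and 196 ± 20.0 in SH (n = 7), Scn8a 251 ± 18.4 and 260.3 ± 29.1, and Scn3b 29.9 ± 3.12 and 28.6 ± 2.37. The 6 log2 fold changes lay between -0.07 and 0.07, with SEs of 0.07 to 0.10, and 0 of 15494 genes (0%) passed in edgeR, where 332 had an unadjusted p under 0.05. None of the 6 genes separated the groups, which 0.0581% of genes did. The male Scn3b sum leaves out the region over the gene's start, chr9:40267876-40273329, whose middle lies more than 1 kb away, whereas the female sum holds its start region, so the sums of the sexes cover different regions. With all regions that overlap the gene or have their middle within 5 kb of its start, the log2 fold change of Scn3b was 0.10 ± 0.07 in males and -0.26 ± 0.08 in females. Their difference between the sexes was not tested.

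**Figure D3:**
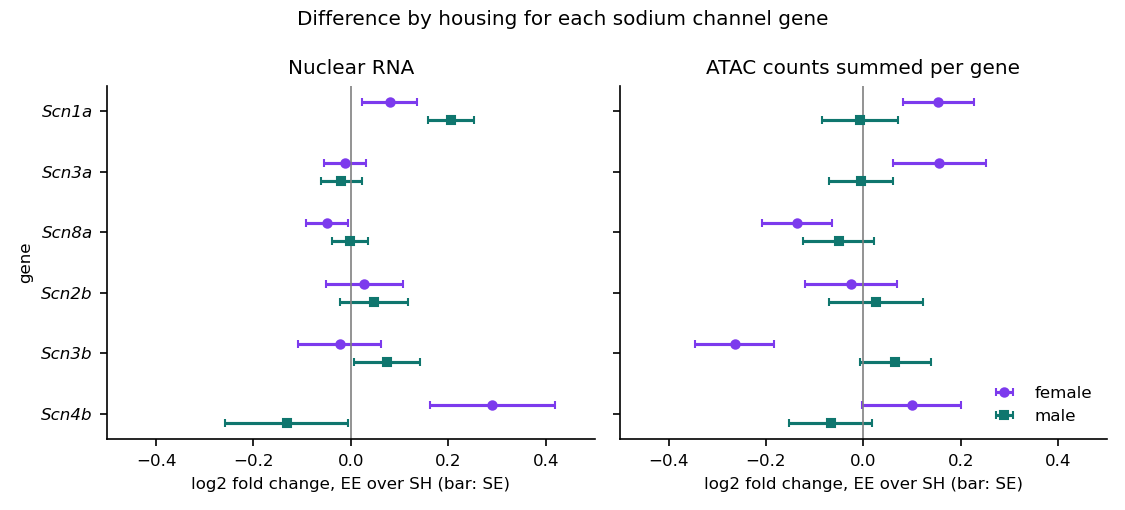
Log2 fold change of EE over SH (x axis) with its SE for each gene (y axis) in nuclear RNA (left) and summed ATAC counts (right), females as purple circles and males as green squares. The male Scn1a RNA value (0.21), the female Scn4b RNA value (0.29) and the female Scn3b ATAC value (-0.26) lie farthest from 0, and male ATAC values stay within 0.07 of it.

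Single regions were tested next, and none of the members' regions was called. In edgeR 0 of 97 passed the adjusted threshold in females, where 78 of 164926 tested regions (0.0473%) did, and 0 of 92 in males, where 0 of 192834 (0%) did. In females 84 of the 97 regions (86.6%) overlapped a region of the male table, and in males 57 of the 92 (62.0%) overlapped a female one. Scn8a held the most regions, 52 in females and 41 in males.

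Scn8a regions leaned towards lower counts in EE. In females 40 of 52 had a log2 fold change below 0, with a median of -0.24, and 12 of 52 (23.1%) had every EE library below every SH library. Over all female regions the median was -0.01, 48.3% were above 0, and 12.8% separated in either direction. In males 35 of 41 lay below 0 with a median of -0.09, against a median of -0.00 and 49.7% above 0 over all male regions, and none separated (0.123% of all regions did). Leaving out libraries or changing the method gave 38 to 44 of 52 in females and 30 to 37 of 41 in males. The median over the female regions was -0.14 without EE replicate 2, and over the male regions -0.04 without EE replicate 4 and -0.15 without EE replicate 5. Regions of 1 gene share libraries and are not independent, and no test of the set was made.

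The female Scn8a region with the smallest p lay 40.8 kb into the gene, at chr15:100910315-100911030. Its EE libraries were at 10.2, 9.29 and 7.28 CPM and its SH libraries at 13.8, 13.4 and 11.5, with no overlap (log2 fold change -0.54 ± 0.15, edgeR adjusted p = 0.16). A region 9.31 kb into the gene, chr15:100878941-100879393, had 3.84, 4.30 and 2.94 CPM under EE and 5.04, 6.03 and 6.85 CPM under SH (-0.69 ± 0.20, edgeR adjusted p = 0.197). The region at the start of Scn8a, chr15:100869666-100870705, averaged 8.22 ± 1.24 CPM in EE against 8.78 ± 2.64 in SH (-0.10 ± 0.17, n = 3 each).

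The male regions with the smallest p all belonged to Scn8a. The one farthest from 0, chr15:100916016-100916247, was higher in EE, at 0.586 ± 0.107 CPM against 0.415 ± 0.0781 (log2 fold change 0.50 ± 0.22, edgeR adjusted p = 1.00). This region held only 10 to 36 counts per library. The other named male regions, 2.45, 79.6, 98.2 and 127 kb into the gene, had log2 fold changes of -0.18 ± 0.10, -0.24 ± 0.14, -0.25 ± 0.14 and -0.31 ± 0.15. All of these groups overlapped between EE and SH.

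In Scn3b 8 of 9 female regions lay below 0, with a median of -0.28. The region over its start, chr9:40268421-40270366, had EE libraries at 26.4, 27.8 and 28.4 CPM and SH libraries at 29.2, 40.3 and 32.3 (log2 fold change -0.30 ± 0.11, edgeR adjusted p = 0.407). The regions 20.1 and 22.0 kb from the start, named for their small p, had log2 fold changes of -0.88 ± 0.31 and -0.64 ± 0.21 (edgeR adjusted p = 0.375 and 0.298). Their neighbours at 19.3 and 20.9 kb were at -0.22 ± 0.28 and -0.44 ± 0.26. In males 5 of 7 regions lay above 0. The male region over the start, chr9:40267876-40273329, has its middle more than 1 kb away and is given in addition: its means were 37.1 ± 2.60 CPM (EE, n = 6) and 34.9 ± 3.18 CPM (SH, n = 7), a log2 fold change of 0.09 ± 0.06.

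Scn1a regions went the other way in females, where 13 of 18 lay above 0 (median 0.17) and 3 of 18 (16.7%) separated, all with EE higher, near the 12.8% of all female regions that separated in either direction. In males 11 of 20 lay above 0, with a median of 0.02. The start region of Scn1a, which holds the sequence printed above, was at 18.2 ± 0.525 CPM in female EE and 17.5 ± 1.65 in female SH (log2 fold change 0.06 ± 0.12) and at 22.6 ± 2.64 and 22.2 ± 2.46 in males (0.03 ± 0.08). RNA and ATAC came from separate libraries.

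**Figure D4:**
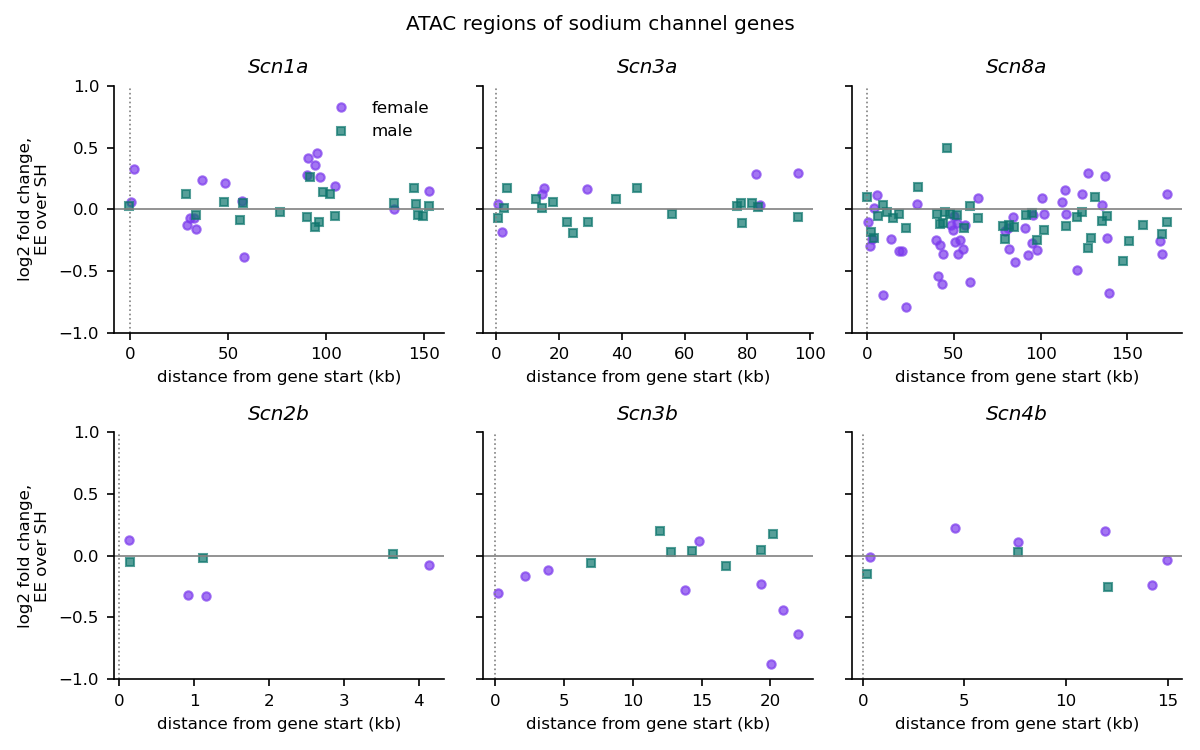
Log2 fold change of EE over SH (y axis) of each ATAC region against its distance from the gene start in kb (x axis; positive into the gene), females as purple circles and males as green squares. Scn8a regions lie mostly below 0 in both sexes (40 of 52 and 35 of 41), while Scn3b regions lie below 0 in 8 of 9 cases in females and in 2 of 7 in males.

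The other sodium channel genes did not pass the test either. In females 0 of 5 tested genes passed, with a median log2 fold change of 0.21 against 0.00 over all genes; in males 0 of 7 passed, with a median of -0.16 against -0.01. Scn2a, the NaV1.2 gene of excitatory neurons, was at 370.1 ± 19.7 CPM in female EE and 379 ± 19.8 in female SH, and at 399 ± 17.9 and 401 ± 15.2 in males. Scn9a, the NaV1.7 gene, was at 12.4 ± 2.44 and 9.33 ± 2.06 CPM in females (log2 fold change 0.41 ± 0.15, edgeR adjusted p = 0.397) and at 8.77 ± 1.04 and 10.1 ± 1.78 in males (-0.21 ± 0.11, adjusted p = 0.68). The difference between the sexes for Scn9a was 0.62 ± 0.20 (edgeR interaction test, adjusted p = 0.292).

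None of the partners of the channels passed the test. Of the FHF genes, whose products bind the channel's tail, 0 of 4 passed in each sex, with medians of 0.02 in females and 0.07 in males. Fgf12 had the smallest p, at 611 ± 36.2 CPM in male EE and 572 ± 19.5 in male SH (log2 fold change 0.09 ± 0.04, edgeR adjusted p = 0.574). Of 10 axon initial segment and node genes 0 passed, with medians of 0.01 and 0.00. Ank3, whose product ankyrin-G anchors the channels, was at 0.02 ± 0.05 and 0.01 ± 0.04. Of 15 regulators and processing enzymes 0 passed, with medians of -0.04 and -0.01. Scnm1, a splicing factor gene, was at 4.56 ± 0.877 and 2.88 ± 0.607 CPM in females (log2 fold change 0.66 ± 0.18, edgeR adjusted p = 0.2) and at 3.60 ± 0.505 and 3.90 ± 0.433 in males (-0.10 ± 0.13).

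Likeness across libraries was measured as the mean of the female and male Pearson r of log2 CPM over 12 libraries each, among 7804 genes. Scn1a was most like Fam135a (0.87), Tmtc1 (0.84) and Dcx (0.82), and Scn8a most like Susd4 (0.87), Nell2 (0.86) and Zfp831 (0.84). Scn3a was most like Dlgap1 (0.78), Scn2b like Dync1h1 (0.77), Scn3b like Rabep1 (0.72) and Scn4b like Eno2 (0.68). These libraries share depth and cell composition, and the values are descriptions.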

How the data were processed

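Nuclear RNA-seq and ATAC-seq counts of NeuN-sorted frontal cortex nuclei were analysed in 43 libraries. The authors deposited whole-number counts of reads, for RNA by Ensembl gene (introns plus exons) and for ATAC by region. STAR 2.5.4, SAMtools 1.3.1, MACS2 2.1.1, bedtools, DESeq2 1.16.1, edgeR and DiffBind 3.2.2 on mm10 are listed, with no role, per the submitters' processing notes. The read counter, strand setting and filters, and whether region starts count from 0 or 1, were not given in the sources used here. Region coordinates are printed as deposited. Gene spans came from the female RNA table.

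Each table was fitted whole in edgeR 4.0.16 (R 4.3.3): TMM scaling, filterByExpr, robust quasi-likelihood F test of EE against SH, Benjamini-Hochberg adjustment, called at an adjusted p under 0.05. The SE is the log2 fold change divided by the root of F. Both RNA tables entered 1 fit for the interaction of sex and housing. CPM values use TMM library sizes. ATAC counts were also summed per protein-coding gene. Alternatives were DESeq2 1.42.0, limma 3.58.1 with voom, total count scaling, no filter, marker covariates, blocks, wider regions and each library left out. The fit was tested on simulated data.

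Named were the members, the region nearest each start, the 5 member regions with the smallest p per table, up to 4 genes of each list per table with the smallest p (Ank3 was added for its role after its values were seen), and the 3 most alike genes among those with a mean log2 CPM of at least 3 in each sex. Members and lists were chosen with earlier results of these data known. A fit with replicate number as a block was tried, and the main fits did not pair libraries. In no table did every same-numbered pair correlate above 0.1, but this cannot exclude matched libraries. In female RNA all 6 such correlations were above 0 (0.04 to 0.31), and the EE and SH column headers carry the same numbers. Whether libraries were matched was not tested. Of 53379 gene IDs 53274 matched a symbol. Depth was 10394786 to 15392672 counts per RNA library and 19075368 to 73835546 per ATAC library.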

Additional observations from a re-analysis of the deposited data

Results flagged for a closer look

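Single libraries that stand apart within their group occurred in 4 of the 58 groups of 6 or 7 libraries examined for the members and their named regions; chance gives about 1 in 20. The lowest library was the one far from the others in all of them. Scn3a nuclear RNA was at 110.0 CPM in female EE replicate 6, against 118 to 121 in the other EE libraries. Scn8a nuclear RNA was at 583 CPM in female SH replicate 2, against 637 to 665 in the other SH libraries; this is also the library with the highest level of the glial, microglial and vascular markers. Male ATAC SH replicate 6 had 19.3 CPM in the summed regions of Scn2b, against 26.9 to 32.2, and 3.48 CPM in the region at the start of Scn8a, against 5.86 to 6.79. The same male library had the lowest summed Scn8a value (201 CPM) and the highest summed Scn1a value (229 CPM) of the male SH group.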

How the results depend on the processing

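The number of female RNA genes called was 0, and 1 with total count scaling, 117 in DESeq2, 168 with no filter, 43 with the non-neuronal marker level as covariate and 1 with the striatal level. Male RNA calls were 6, and 61, 136 and 0 in DESeq2, with no filter and with the striatal level. Female ATAC regions went from 78 to 122 and male ATAC regions from 0 to 7 in DESeq2. Female ATAC sums went from 1 to 8 genes with total count scaling and to 8 with the wider regions (any overlap or 5 kb). Interaction calls went from 1 to 0 with total count scaling and to 91 in DESeq2. With replicate number as a block the calls were 95 (female RNA), 3 (male RNA), 34 (female ATAC regions), 1 (male ATAC regions), 24 (female sums) and 28 (interaction, block within sex). The main fits did not pair libraries by these numbers, which the sample titles give. Same-numbered libraries correlated at 0.04 to 0.31 in female RNA and -0.03 to 0.23 in male RNA. In female ATAC the range was -0.07 to 0.07 and in male ATAC -0.10 to 0.17. In this order, 2 of 6, 1 of 6, 0 of 3 and 0 of 6 numbers correlated best with their own. In male RNA the column headers of a replicate's EE and SH libraries mostly carry unlike numbers. The male RNA values therefore cannot decide about pairing by header number. Whether libraries were matched was not tested. No member was called under the block.

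Leaving out each library in turn gave 0 to 85 female RNA genes (85 without SH replicate 2), 0 to 11 male RNA genes, 22 to 333 female ATAC regions (333 without SH replicate 1), 0 to 288 genes in female sums (288 without SH replicate 1), 0 to 3 male ATAC regions, 0 in male sums and 0 to 39 interaction genes (39 without female SH replicate 2).

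Among members, male Scn1a RNA kept its direction in every fit (0.17 to 0.24 with a library left out). Its adjusted p passed in DESeq2, with no filter and without EE replicate 5, and Scn3b in female sums passed without SH replicate 1. Signs turned for several members. With total count scaling female Scn3a RNA was at 0.011, female Scn3b RNA at 4.25e-05, the female Scn4b start region at 0.0051, and the interactions of Scn2b and Scn8a at 0.035 and 0.0084. Male Scn8a RNA was at 0.0022 in DESeq2, 0.010 with no filter, 0.0071 with the non-neuronal level and 0.023 with the striatal level, and male Scn4b RNA turned from -0.13 to 0.12 with the striatal level. The replicate block gave -0.0022 for the male Scn1a start region and 0.036 for that of Scn2b, and DESeq2 gave -0.0049 for the Scn3a interaction. With 1 library left out, log2 fold changes of RNA spanned 0 for female Scn3a (-0.024 to 0.0058), Scn3b (-0.072 to 0.026) and Scn2b (-0.014 to 0.083), for male Scn3a (-0.041 to 0.0036) and Scn8a (-0.021 to 0.012), and for the interactions of Scn3a (-0.025 to 0.030) and Scn2b (-0.071 to 0.028). Female ATAC sums did so for Scn4b (-0.017 to 0.19) and Scn2b (-0.079 to 0.027), and male sums for Scn3a (-0.034 to 0.030), Scn1a (-0.042 to 0.034) and Scn2b (-0.046 to 0.064). Start regions did so in females for Scn8a (-0.24 to 0.18, and -0.10 with all libraries), Scn3a (-0.039 to 0.10), Scn1a (-0.014 to 0.12) and Scn4b (-0.10 to 0.097), and in males for Scn1a (-0.019 to 0.066) and Scn2b (-0.17 to 0.010). The cause was not tested. Scn4b had the fewest counts of the 6 genes, 2709 over 12 female and 1404 over 12 male libraries.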
